A study of Mus musculus with 36 samples.

Results

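Igf2, H19 and Mest, with 4 further imprinted genes that act on growth (Dlk1, Peg3, Cdkn1c and Igf2r), were followed in single cells of the mouse left ventricle after sham surgery, ischemia-reperfusion (IR) or myocardial infarction (MI). The 7 genes were found by symbol among the 20720 nuclear genes listed in the tables. They were selected on their UMI levels by cell class, group and day in these data, so these levels are given as a description and were not tested. Imprinted genes are read from only the maternal or only the paternal copy. Many of them are highly active in the fetus and are turned down after birth.

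Hearts came from male C57BL/6 mice (C57BL/6 J in the study's methods) aged 8 weeks. Sham hearts filled 4 plates at day 1 and 8 at day 14. IR, a ligation of the left anterior descending artery lifted after 1 hour, filled 9 plates at day 1, with 7 at day 3 and 3 at day 14, and MI, a ligation of the same artery that was left in place, filled 5 at day 3. The infarct with its border, or the matching region of sham hearts, was digested and living single cells were sorted into the wells of plates for SORT-seq, which tags each transcript with a random unique molecular identifier (UMI). The study's methods give 3 mice per condition for hearts of day 3, the number for other days is not given in the sources used here, and the labels do not tie plates to mice, so the spread given here is between plates, some of which may share a mouse, and may be technical. Sham hearts of day 3 were not analysed here.

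Total UMIs per plate ranged from 176614 to 5551870, and 3146 of 13824 wells held at least 1000 UMIs of nuclear genes. Replicates 2 and 7 of sham day 14 were 1 plate deposited 2 times and were counted as 1. Of other wells found on 2 plates, the copy with fewer UMIs was left out, which left 3090 cells. On IR day 3 replicate 6, 33 of 70 wells of at least 500 UMIs matched wells of sham day 14 replicate 2. These 33 were the copies with more UMIs and were kept as IR day 3, and which group they came from is not known. The median cell held 13120 UMIs in MI day 3 and 2217 to 3230 in the other groups, so shares of cells with a UMI are also given as the share expected at 1000 UMIs per cell. The median mitochondrial share of a cell's UMIs stood between 71.9% and 74.0% in both sham groups and IR day 14, at 49.3% in IR day 3, at 34.6% in IR day 1 and at 10.5% in MI. It thus ran low where Mest was high and Cdkn1c low, and its part in the values below was not tested. Classes were named from marker genes as endothelial-like (408 cells), cardiomyocyte-like (1111), fibroblast-like (331), mural-like (15), neutrophil-like (156), macrophage-like (621) and erythrocyte-like (12), and 436 cells were left unnamed. All 8 endothelial markers were detected in endothelial-like cells of every group. The MI plates carry a protocol label of their own, so a library batch and MI cannot be told apart in any value below.

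Igf2 encodes a secreted growth factor that signals through the IGF1 receptor and is made from the paternal copy. H19 is a noncoding RNA made from the maternal copy, and both genes share enhancers and a control region that lies between them. Igf2r encodes a receptor that takes IGF2 up for breakdown in the lysosome. Mest encodes a membrane protein of the hydrolase fold, Cdkn1c the cell cycle inhibitor p57, Dlk1 a Notch-related membrane protein and Peg3 a zinc-finger protein. In GRCm38, Igf2 lies at chr7:142650766-142666816 and H19 at chr7:142575529-142578143, both on the minus strand and 72623 bases apart. Cdkn1c (chr7:143458339-143461050, minus) and Peg3 (chr7:6703892-6730431, minus) are on the same chromosome. Mest lies at chr6:30723547-30748465 (plus), Dlk1 at chr12:109452823-109463336 (plus) and Igf2r at chr17:12682406-12769664 (minus).

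Igf2, H19 and Mest host microRNAs, whose mature sequences from RefSeq (GRCm38.p6) are shown because their host transcripts carry the results below. Capitals mark the seed, bases 2 to 8.
mmu-miR-483-3p: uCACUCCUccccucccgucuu
mmu-miR-483-5p: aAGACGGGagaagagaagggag
mmu-miR-675-3p: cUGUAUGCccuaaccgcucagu
mmu-miR-675-5p: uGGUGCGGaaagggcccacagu
mmu-miR-335-5p: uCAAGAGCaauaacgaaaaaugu
mmu-miR-335-3p: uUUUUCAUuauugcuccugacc
The miR-483 and miR-335 arms lay outside the exons of all annotated transcripts of Igf2 and Mest, and the miR-675 arms lay in an exon of 3 of 7 H19 transcripts. The 6 arms had 6 different seeds. The tables count polyadenylated transcripts, so they do not measure mature microRNAs.

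The promoter table of RefSeq (GRCm38.p6, 250 bases before to 50 after each start) held 10 starts of 5 of the 7 genes, Igf2, Mest, Peg3, Dlk1 and Igf2r. Imprinting is carried by methylation of CpG pairs, so a CpG-rich start is shown for Igf2, the start at chr7:142658755-142659054 (minus strand), and for Mest, the start at chr6:30737800-30738099 (plus strand). Capitals mark CpG pairs.
Igf2 start: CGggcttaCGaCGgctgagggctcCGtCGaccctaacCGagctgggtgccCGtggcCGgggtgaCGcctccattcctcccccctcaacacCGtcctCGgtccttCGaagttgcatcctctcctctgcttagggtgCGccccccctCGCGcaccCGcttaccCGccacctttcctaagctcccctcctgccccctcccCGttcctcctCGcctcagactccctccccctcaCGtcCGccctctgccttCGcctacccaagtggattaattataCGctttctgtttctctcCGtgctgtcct
Mest start: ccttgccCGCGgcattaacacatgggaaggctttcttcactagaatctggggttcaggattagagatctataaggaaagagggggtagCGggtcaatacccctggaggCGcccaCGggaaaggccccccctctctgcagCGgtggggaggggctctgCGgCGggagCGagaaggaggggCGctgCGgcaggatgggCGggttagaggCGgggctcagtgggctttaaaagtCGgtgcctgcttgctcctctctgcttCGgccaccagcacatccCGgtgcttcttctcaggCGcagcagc
The Igf2 window held 24 CpG pairs and the Mest window 17, against a median of 7 over all 32851 promoter windows. They were picked for their CpG pairs, and the other 3 Igf2 windows held 14, 7 and 2 and another Mest window 8. At least 24 pairs were found in 19.98% of all windows and at least 17 in 31.4%. The motif TGCCGC, known as a target of the imprint-keeping factor ZFP57 when methylated, was searched on both strands (TGCCGC or GCGGCA). It occurred 2 times in the Mest window and 0 times in this Igf2 window (1 time in the Igf2 window of 14 pairs), and 11.6% of all windows held it. Methylation was not measured, and UMIs from the 3′ end of a transcript do not show which start was used.

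Igf2 and Mest were found mainly in endothelial-like cells. These made up 13.2% of cells and 12.4% of UMIs, but held 85.3% of the 2575 Igf2 UMIs and 84.7% of the 1627 Mest UMIs. Endothelial-like cells also held 73.6% of the 789 Cdkn1c UMIs. H19, with 5912 UMIs the most abundant, was spread more widely, with 54.0% in endothelial-like and 27.4% in fibroblast-like cells, which held 29.4% of all UMIs. MI day 3 held 56.2% of the UMIs of all genes. Of the Igf2 UMIs 80.8% were in MI, of the H19 UMIs 92.7% and of the Mest UMIs 77.0%, whereas MI held 18.4% of the Cdkn1c UMIs and 58.8% of the Igf2r UMIs. Igf2r was found in every class, in 1268 cells with 5032 UMIs. Peg3 (81 UMIs in 53 cells, 63.0% of them in fibroblast-like cells) and Dlk1 (13 UMIs in 13 cells, never more than 1 in a cell) were near the limit of detection.

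Mest was the most even of the 3 leading genes in endothelial-like cells after MI. On the 5 MI plates it stood at 692, 1182, 817, 411 and 549 UMIs per 1e+06 UMIs of the class (CPM), a mean of 730 ± 295 CPM (SD, n = 5). Sham plates had 52.0, 31.6, 35.8 and 52.7 CPM at day 1, a mean of 43.0 ± 10.9 CPM (n = 4), and 13.5, 33.1, 230 and 44.8 CPM at day 14, a mean of 80.4 ± 100.7 CPM (n = 4). Every MI plate was above every sham plate. On MI plate 5, 1 cell held 21 of the 22 Mest UMIs, and without it the plate was at 73.9 CPM, inside the sham range. Plates 1 to 4 were at 278 to 857 CPM without their top cell. Among all 3646 genes tested in this comparison 36.1% passed (edgeR, adjusted p under 0.05), given as background only, since Mest was chosen for its level. The share of all genes whose plates did not overlap, the like measure, was not computed here or below. Pooled over cells, Mest had 683 CPM in MI and 38.9 CPM in both sham groups together, a 17.6-fold ratio.

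Mest was also higher on IR day 1 plates, whose lowest, median and highest values were 75.6, 218 and 397 CPM (mean 218 ± 124 CPM, n = 8). All 8 were above the 4 plates of sham day 1, a comparison in which 17.7% of all genes passed. IR day 3 plates had 228, 432 and 41.2 CPM (mean 234 ± 195 CPM, n = 3), which overlapped with sham. IR day 14 had 46.0, 70.4 and 84.6 CPM (mean 67.0 ± 19.5 CPM, n = 3). From high to low the group means ran MI day 3, IR day 3, IR day 1, sham day 14, IR day 14 and sham day 1. Each pair of neighbours in this order overlapped in range.

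At least 1 Mest UMI was seen in 45 of 58 endothelial-like cells of MI (77.6%), 15 of 107 of sham day 1 (14.0%) and 9 of 73 of sham day 14 (12.3%). At 1000 UMIs per cell the expected shares were 37.8% in MI, 2.84% and 3.53% in sham of day 1 and day 14, and 8.13%, 15.1% and 5.61% in IR of day 1, day 3 and day 14. Neutrophil-like cells of MI, a class that should lack the gene, had 0.786% by the same measure, with a median depth of 2224 UMIs against 16726 in the endothelial-like cells. The Mest share in MI endothelial-like cells was thus far above this background.

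**Figure D1:**
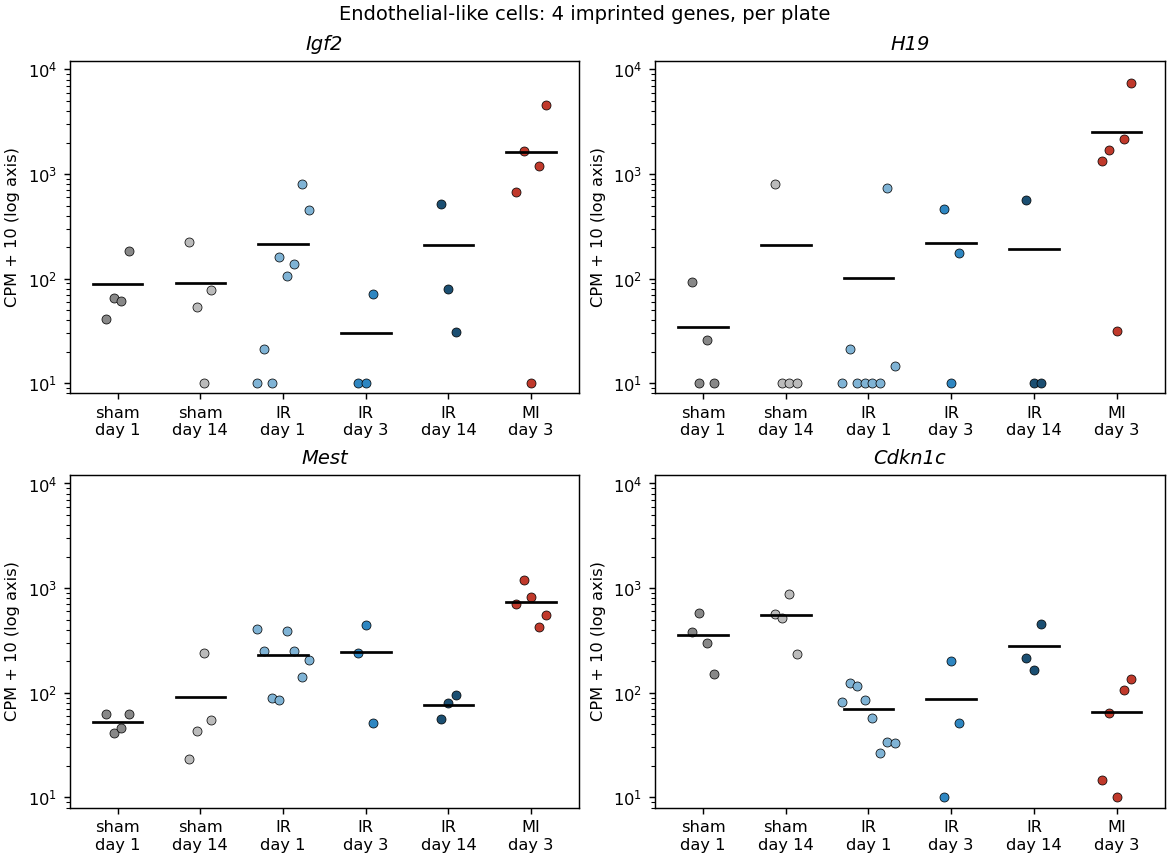
Each point is 1 plate and shows UMIs of a gene per 1e+06 UMIs (CPM) summed over its endothelial-like cells, plus 10, on a log axis, with the group mean as a bar. Mest lies between 411 and 1182 CPM on all 5 MI plates, Igf2 and H19 are high on 4 of the 5, and Cdkn1c is low in IR day 1 and MI day 3.

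Igf2 in endothelial-like cells was high on 4 of 5 MI plates and absent from the other. The MI plates had 666, 1647, 0, 1173 and 4595 CPM (mean 1616 ± 1774 CPM, SD, n = 5). Sham day 1 plates had 31.2, 55.3, 51.7 and 176 CPM (78.5 ± 65.6 CPM, n = 4) and sham day 14 plates 215, 44.2, 0 and 67.2 CPM (81.7 ± 93.3 CPM, n = 4). Because of replicate 3, at 0, the MI and sham ranges overlapped. IR day 1 ranged from 0 to 797 CPM (median 111, mean 203 ± 280 CPM, n = 8), IR day 3 had 0, 0 and 61.8 CPM (20.6 ± 35.7 CPM, n = 3) and IR day 14 had 506, 70.4 and 21.2 CPM (199 ± 267 CPM, n = 3). All groups other than MI overlapped with each other.

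H19 was high on the same 4 MI plates, and its MI and sham ranges overlapped. It stood at 1331, 1683, 21.9, 2158 and 7367 CPM on MI plates 1 to 5 (mean 2512 ± 2827 CPM, SD, n = 5). Sham day 1 had 83.2, 0, 15.9 and 0 CPM (24.8 ± 39.7 CPM, n = 4), and of the sham day 14 plates 3 were at 0 and 1 at 800.3 CPM (200 ± 400 CPM, n = 4). IR day 1 plates ranged from 0 to 725 CPM, with 5 of 8 at 0 (92.6 ± 255 CPM). IR day 3 plates had 456, 0 and 165 CPM (207 ± 231 CPM, n = 3) and IR day 14 plates 552, 0 and 0 CPM (184 ± 319 CPM, n = 3).

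The Igf2 and H19 of the MI plates came from a few cells. Of the 58 endothelial-like MI cells, 7 had at least 50 Igf2 UMIs, and these held 1783 of 1799 Igf2 UMIs and 2806 of 2865 H19 UMIs. The cut of 50 was set after the values were seen, and a cut of 10 picked the same 7 cells. The 7 cells were on plates 1, 2 and 5 (1 each) and 4 (4 cells), and none was on plate 3. The cell with the most Igf2 held 99.3%, 98.4%, 61.6% and 99.5% of the Igf2 UMIs of plates 1, 2, 4 and 5. Without the cell with the most UMIs of the gene on each plate, a setting added after the data were seen, the MI mean fell from 1616 to 118 CPM for Igf2 and from 2512 to 193.9 CPM for H19, but only from 730 to 467 CPM for Mest.

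The cell of plate 1 had 277 Igf2, 550 H19 and 10 Mest UMIs. That of plate 2 had 540 Igf2, 538 H19 and 12 Mest UMIs, and that of plate 5 had 183, 295 and 21. The 4 cells of plate 4 had 485 Igf2 with 914 H19 UMIs, 160 with 470, 77 with 36 and 61 with 3. Igf2 and H19 were thus high together in 5 of the 7 cells, and 2 cells had much Igf2 with little H19. The cell with 77 Igf2 UMIs held 426261 UMIs in all, and it and the cell with 160 carried markers of another class (at least 2 markers at 1 UMI per 1000). Counts were not corrected for molecules that share 1 of the limited number of UMI sequences, so the highest counts per cell understate the number of molecules.

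Mest was not tied to these cells, except on plate 5, where 21 of 22 Mest UMIs lay in the cell with much Igf2. The other 51 endothelial-like MI cells held 916 of 1094 Mest UMIs, in 38 cells and at 985 CPM pooled. The 7 cells were at 265 CPM, or at 552 CPM without the cell of 426261 UMIs, which held most of their UMIs. In the same 51 cells Igf2 was at 17.2 CPM and H19 at 63.5 CPM, and H19 was at 209 CPM in the neutrophil-like cells of MI. Counted at 10 UMIs or more, 7 cells had Igf2, 6 H19 and 24 Mest, with 5 cells having all 3. At 50 UMIs or more, 7 had Igf2, 5 H19 and 7 Mest, and 1 cell had all 3.

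**Figure D2:**
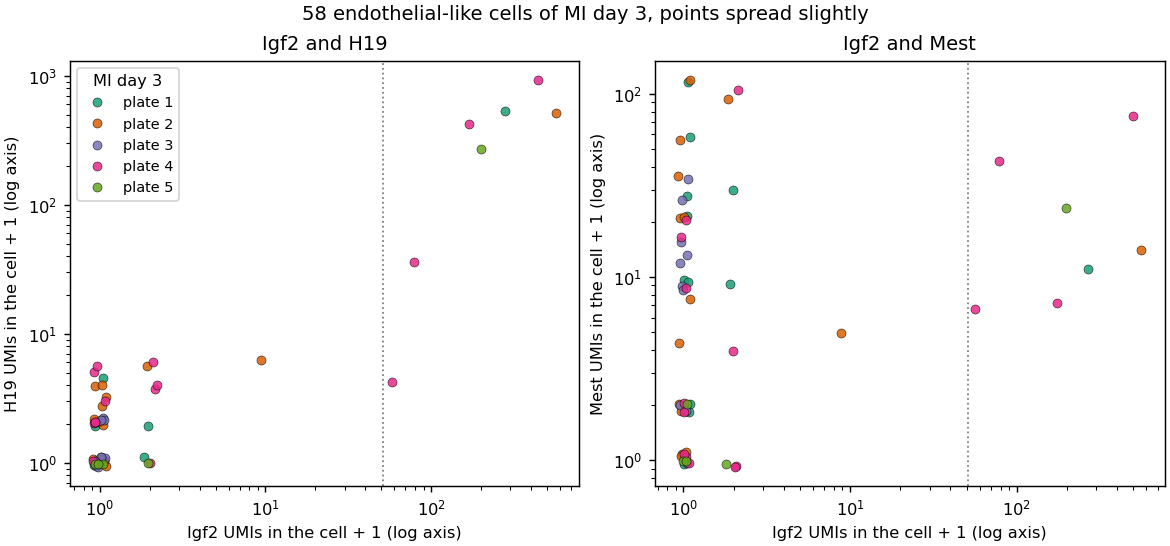
Each point is 1 of the 58 endothelial-like cells of MI day 3, coloured by plate, with its Igf2 UMIs on the x axis and its H19 (left) or Mest UMIs (right) on the y axis, all plus 1 on log axes, with points spread slightly at random. The 7 cells right of the dotted line (at least 50 Igf2 UMIs) hold nearly all Igf2 and H19, whereas Mest is high in many cells with no Igf2.

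Of the 7 cells with much Igf2, 5 carried further genes in common, named here after their values were seen. Pecam1 and Cdh5, both genes of endothelial junctions, were detected in 7 of 7. They are among the markers that named the class, and were also detected in 49 and 48 of the other 51 cells. The 7 cells had a median depth of 36815 UMIs and the 51 of 14220, which bears on detection. The cell of 426261 UMIs set the pooled values, so these are given for the other 6 cells, a setting added after the data were seen, with the value for all 7 second. The blood clotting gene Vwf had 2709 CPM (997 CPM with all 7) and 131 CPM in the 51 cells with less Igf2, and Plvap, which forms the diaphragms of fenestrae, 3592 CPM (1352 CPM) and 599 CPM. Npr3, a clearance receptor for natriuretic peptides known from endocardium, had 952 CPM (347 CPM) and 1.08 CPM, detected in 5 of 7 and 1 of 51 cells. Hand2, a transcription factor of heart development, was at 462 CPM (179 CPM) and 9.68 CPM. Smoc1, a matricellular protein, was seen in 6 of 7 and 0 of 51 cells. Plagl1, itself imprinted and encoding a zinc-finger factor, was at 1087 CPM (402 CPM) and 28.0 CPM. The cell with 61 Igf2 UMIs had 0 UMIs of Vwf, Plvap, Npr3, Smoc1, Hand2 and Plagl1, and the cell of 426261 UMIs had Vwf at 14.1 and Plvap at 65.7 CPM. Apln, the peptide of angiogenic tip cells, had 9 UMIs in the 7 cells, 8 of them in the cell of 426261 UMIs, and stood at 389 CPM in the 51. Fibroblast markers summed to 3040 CPM in the 6 cells pooled (4099 CPM with all 7) and to 988 CPM in the 51, with single cells from 1254 to 10481 CPM and from 313 to 9430 CPM. Endothelial markers summed to 5149 CPM in the 6 cells (3753 CPM with all 7) and to 8754 CPM in the 51, and macrophage markers to 1116 CPM (957 CPM) and 331 CPM. Mural markers summed to 143 CPM (1206 CPM) and 125 CPM. The part of these markers in the values was not tested.

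Endothelial-like cells with much Igf2 were also seen outside MI. A cut of 50 UMIs depends on depth, and the median endothelial-like cell held 16726 UMIs in MI and 2999 to 3394 in the other groups. A level of at least 1000 CPM with at least 3 UMIs, chosen after the data were seen, was reached by 6 of 58 cells in MI (10.3%), 5 of 79 in IR day 1 (6.33%), 2 of 56 in IR day 14 (3.57%), 2 of 73 in sham day 14 (2.74%) and 1 of 107 in sham day 1 (0.935%). IR day 3 had 0 of 35, which allows a share of up to 8.57%. At 500 CPM only sham day 1 changed, to 3 of 107 cells (2.80%). At 2000 CPM sham day 14 had 0 of 73 and IR day 1 had 4 of 79 (5.06%), with the other groups unchanged. These shares were not tested.

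H19 went with Igf2 at that level in 5 of the 6 cells of MI, in both cells of IR day 14, in 1 of 2 of sham day 14, in 0 of 5 of IR day 1 and in 0 of 1 of sham day 1. The cells of IR day 14 had 77 Igf2 with 111 H19 UMIs and 27 with 8. The cell of sham day 14 had 21 Igf2 with 114 H19 UMIs, nearly the whole of the 800.3 CPM of H19 on replicate 1. On replicate 8 of IR day 1, 2 cells with 33 and 30 Igf2 UMIs had 0 H19, and another cell had 59 H19 UMIs with 0 Igf2. A cell of IR day 1 with 83 Igf2, 0 H19 and 37 Mest UMIs held 190460 UMIs in all and lay under the level.

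Endothelial-like cells fell into 3 clusters of different make-up in the groups, made without the 7 imprinted genes. The cluster led by Plvap, Mest, Igf2, Cytl1, Vwf, Selp and Apln held 54 of 58 cells in MI (93.1%) and 46 of 79 in IR day 1 (58.2%), but 7 of 107 in sham day 1 and 3 of 73 in sham day 14. A cluster led by Cd300lg, Ly6c1, Timp4 and Kdr held 72.9% and 69.9% of the cells of the sham groups and 6.90% in MI. All 7 cells with much Igf2 were in the first cluster. In the second, Mest was at 45.6 CPM in sham day 1, 44.5 in sham day 14 and 99.9 in IR day 1. Its 4 MI cells held 9, 1, 0 and 0 Mest UMIs, the 9 in a cell of 27678 UMIs. So the values of MI and of sham rest largely on different clusters. Cardiomyocyte markers summed to 179 CPM in MI endothelial-like cells and to 2192 to 31808 CPM in the other groups, and endothelial markers to 6658 CPM in MI and 9334 to 15961 CPM elsewhere. The part of these differences in the values above was not tested.

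Cdkn1c, whose product p57 holds cells out of the cycle, went the other way in endothelial-like cells. Sham day 1 plates had 374, 569, 287 and 140 CPM (343 ± 179 CPM, SD, n = 4) and sham day 14 plates 558, 508, 870 and 224 CPM (540 ± 265 CPM, n = 4). MI plates had 4.77, 54.0, 0, 95.4 and 125 CPM (55.8 ± 54.9 CPM, n = 5), all below every sham plate, and again 36.1% of all genes passed in this comparison. IR day 1 plates ranged from 16.5 to 114 CPM (median 59.2, mean 59.7 ± 37.99 CPM, n = 8) and were also below every sham plate, where 17.7% of all genes passed against sham day 1. IR day 3 had 0, 191 and 41.2 CPM (77.4 ± 100 CPM, n = 3), and IR day 14 had 207, 155 and 444 CPM (269 ± 154 CPM, n = 3), within the sham range.

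At 1000 UMIs per cell, the expected share of endothelial-like cells with a Cdkn1c UMI was 23.6% and 34.4% in sham of day 1 and day 14, 4.60%, 12.96% and 18.2% in IR of day 1, day 3 and day 14, and 4.66% in MI. Of the 89 Cdkn1c UMIs in MI, 78 were in the 7 cells with much Igf2. In fibroblast-like cells Cdkn1c had 142, 78.5 and 97.6 CPM in sham day 1 (106 ± 32.7 CPM, n = 3), 58.8 CPM on the single plate of sham day 14, 3.33 ± 4.95 CPM in IR day 1 (n = 5) and 5.31 ± 3.18 CPM in MI (n = 5). IR day 3 had 142, 20.5, 74.6 and 0 CPM (59.4 ± 63.7 CPM, n = 4) and IR day 14 had 127 and 52.6 CPM, so both reached the sham range. The MI fibroblast-like plates lay between 2.27 and 9.86 CPM and below every sham plate, where 17.6% of all 6715 genes tested passed. Cardiomyocyte-like cells had at most 14.0 CPM pooled in any group, and 0 UMIs in the 19 cells of MI.

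Igf2r, the receptor that clears IGF2, had like mean levels in 4 of the 6 groups of endothelial-like cells. Endothelial-like plates had a mean of 157 ± 27.5 CPM in sham day 1 (SD, n = 4), 149 ± 27.3 CPM in sham day 14 (n = 4), 188 ± 39.4 CPM in IR day 3 (n = 3) and 148 ± 7.77 CPM in IR day 14 (n = 3). IR day 1 was lower, at 65.0 ± 33.2 CPM (n = 8), with all 8 plates between 0 and 109 CPM and the sham day 1 plates between 127 and 193 CPM, a comparison in which 17.7% of all genes passed. MI plates ranged from 102 to 824 CPM (319 ± 289 CPM, n = 5) and overlapped with sham. Igf2r in MI was at 380 CPM pooled in the 7 cells with much Igf2, or 809 CPM without the cell of 426261 UMIs. It was at 125 CPM in the other 51. On the plate at 824 CPM, the cell with 183 Igf2 UMIs held 31 Igf2r UMIs. Fibroblast-like cells had 222 ± 33.9 CPM in MI (n = 5) and 256 ± 87.7 CPM in sham day 1 (n = 3). Their 5 IR day 1 plates had 37.5 to 134 CPM (74.4 ± 40.1 CPM) and their 4 sham plates 157 to 325 CPM, a comparison not made across all genes. Cardiomyocyte-like cells had 175 ± 45.4 CPM in sham day 1 (n = 4). Sham day 14 had 142 ± 28.0 CPM (n = 5) and IR day 14 had 234 ± 18.0 CPM (n = 3), without overlap. In that comparison 0.219% of all genes passed, but a lack of overlap is a looser measure than passing. Igf1r, Insr and Ube3a also had no overlap there, with an edgeR adjusted p of 0.71 or more. The 2 MI plates with enough such cells had 0 and 45.3 CPM.

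Fibroblast-like cells fell into 2 clusters, also made without the 7 genes. A cluster led by Cxcl5, Timp1, Tnc and Lox held 130 of 133 cells in MI, 41 of 51 in IR day 1, 13 of 73 in IR day 3 and 0 of the 45 sham cells. The other, led by Htra3, Pi16, Islr and Scara5, held all cells of sham and of IR day 14. So every value of MI against sham in fibroblast-like cells compares nearly separate clusters, and MI against IR day 3 largely different ones. The part of this in the values was not tested.

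H19 in fibroblast-like cells was highest on plates of day 3. No H19 UMI was found in the 45 sham fibroblast-like cells, where 3 UMIs would amount to 12.2 CPM over both groups. MI plates had 67.3, 424, 251, 364 and 55.4 CPM (232 ± 168 CPM, SD, n = 5), and the pooled level, 224 CPM, was at least 18.3-fold higher than that limit, in a comparison in which 17.6% of all genes passed. The other classes of MI differed in their pooled H19, with 65.3 CPM in cardiomyocyte-like, 98.9 CPM in macrophage-like, 209 CPM in neutrophil-like and 609 CPM in unnamed cells. IR day 3 plates had 651, 0, 49.7 and 22.0 CPM (181 ± 314 CPM, n = 4), of which the highest was above all MI plates. IR day 1 had 0 CPM on 4 of 5 plates and 11.1 CPM on the other, and IR day 14 had 21.2 and 30.04 CPM. Of the 133 MI cells, 15 with at least 20 H19 UMIs held 1148 of 1576 UMIs, up to 224 in a cell, and the others were at 72.6 CPM. In MI fibroblast-like cells Igf2 was at 9.36 ± 3.40 and Mest at 5.71 ± 2.51 CPM (n = 5). Sham day 1 had 41.2 ± 50.5 CPM of Igf2 and 32.5 ± 56.3 CPM of Mest (n = 3), from 5 and 3 UMIs, and the ranges overlapped with MI.

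H19 was detected in each class of MI cells compared here. At 1000 UMIs per cell the expected share with a UMI was 15.8% in endothelial-like, 14.0% in fibroblast-like, 12.4% in cardiomyocyte-like and 7.66% in macrophage-like cells, against 21.1% in neutrophil-like and 40.7% in unnamed cells. Neutrophil-like cells had 30 H19 UMIs in 23 of 49 cells and never more than 3 in a cell. A cluster of 183 of the unnamed cells had 4 fibroblast markers raised but a low median depth (1437 UMIs) and was not named, and H19 was among the leading genes of that cluster by fold. The shares in endothelial-like and fibroblast-like cells did not exceed that of neutrophil-like cells, a class that should lack the gene. No expression is therefore read from shares of cells with H19 in MI, and whether free RNA gave them was not tested. Wells of over 100 and under 1000 UMIs, below the limit used for cells, had 707 CPM of H19 in MI (430 UMIs in 311 of 1181 wells) and 15.1 and 6.16 CPM in sham day 1 and day 14. Igf2 in such wells was at 115 CPM in MI and 12.0 and 12.3 CPM in sham, and Mest at 36.1 CPM in MI. A macrophage-like cell of MI plate 3 held 70 Igf2 and 274 H19 UMIs, 35.5% of the H19 of its class in MI.

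**Figure D3:**
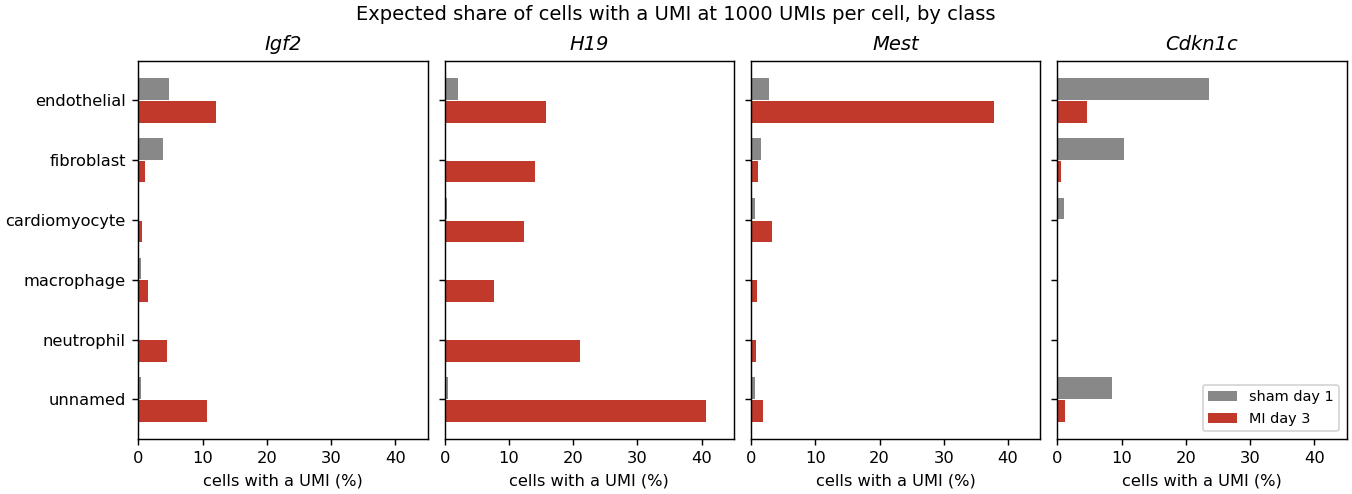
Bars give the share of cells expected to have at least 1 UMI of a gene at 1000 UMIs per cell, by class, in sham day 1 (grey) and MI day 3 (red); classes with under 5 cells have no bar. Mest at 37.8% stands out in MI endothelial-like cells, while H19 is at least as frequent in neutrophil-like (21.1%) and unnamed cells (40.7%) as in endothelial-like cells (15.8%).

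Mural-like cells carried Igf2 with almost no H19. Igf2 was detected in 11 of the 15 cells (52 UMIs, 345 CPM), with 4 of 4 cells in sham day 14 holding 38 of these UMIs, whereas H19 had 1 UMI in all 15. The class has too few cells per plate for a value by group. Cardiomyocyte-like cells had 0 to 4 Igf2 UMIs per group and at most 8.70 CPM. Peg3 in fibroblast-like cells was at 26.0 ± 34.4 CPM in sham day 1 (n = 3) and 4.78 ± 3.18 CPM in MI (n = 5), with overlapping ranges. Dlk1 had 0 UMIs in endothelial-like cells of MI, which allows up to 1.87 CPM at 3 UMIs (counting error only).

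The genes most like each member were found over 133 sums of a plate and class by Pearson's r of log2(CPM + 10), among 10448 genes. These sums share plates and differ in depth, and r is a description only. Igf2 was most like Plvap (r = 0.65), Vwf (0.63) and Plagl1 (0.63), and H19 most like Plagl1 (0.70), Smoc1 (0.64) and Cdh11 (0.59). Mest was most like Flt4 (0.80), the VEGF-C receptor, Sema3f (0.78) and Col18a1 (0.78). For Cdkn1c the closest were Sdpr (0.75), Prex2 (0.74) and Tmem204 (0.74), and for Igf2r they were Chd4 (0.56), Laptm4a (0.56) and Tmem59 (0.55). Peg3 was nearest to Gem (0.58), Heyl (0.57) and Ebf2 (0.53), and Dlk1 to Gins3, Xcr1 and Rab40b (0.42, 0.42 and 0.40). Between members, r was 0.58 for Igf2 and H19, 0.55 for Igf2 and Mest, 0.45 for Mest and Cdkn1c and 0.34 for H19 and Mest.

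The IGF pathway around Igf2 was then tested with edgeR on UMIs summed per plate and class. The 23 listed genes cover the ligand Igf1, receptors, docking proteins, binding proteins that hold IGFs in the tissue, and enzymes that release them. In endothelial-like cells, MI against both sham groups, 36.1% of all 3646 genes tested passed the threshold (adjusted p under 0.05). Of the pathway 8 genes could be tested, of which 3 rose and 0 fell, a share close to that of all genes. The median log2 fold change of the 8 was 0.90, against 0.10 over all genes.

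Igfbp3, the main IGF carrier of blood, rose in MI from 79.8 ± 49.5 CPM (SD, n = 8) to 893 ± 570 CPM (n = 5), a log2 fold change of 3.61 ± 0.49 SE (adjusted p = 7.95e-07 in edgeR), with an MI plate at 25.0 CPM inside the sham range of 19.9 to 157 CPM. Igfbp4, a binding protein cut by pappalysin, rose from 106 ± 51.9 to 660 ± 375 CPM (log2 2.51 ± 0.50 SE, edgeR adjusted p = 1.82e-04), and its 5 MI plates were all above the 8 sham plates. Both calls held under every alternative run. Stc1, stanniocalcin, an inhibitor of pappalysin, rose by 3.33 ± 1.01 SE on the log2 scale (edgeR adjusted p = 0.0098), a call lost without MI replicate 4 (log2 2.14), and stood at 5.04 without sham day 14 replicate 1. Within MI, Igfbp3 was found in 2 of the 7 cells with much Igf2 and in 36 of the other 51, and Igfbp4 in 7 of 7 and 35 of 51. The median depth was 36815 UMIs in the 7 and 14220 in the 51. In IR day 1 against sham day 1, where 17.7% of all genes passed, Stc1 was the only 1 of the 8 that rose (log2 3.90 ± 1.14 SE, edgeR adjusted p = 0.0158), and this was lost under 4 of 23 alternatives, among them without sham day 1 replicate 3 (log2 3.18). In IR day 3 against sham, with 1.65% of all genes called, Igfbp7 passed (log2 1.24 ± 0.33 SE, edgeR adjusted p = 0.0461), a call lost under 12 of 21 alternatives, 9 of them the loss of a single plate (log2 0.76 without IR day 3 replicate 4).

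In fibroblast-like cells of MI, nearly all from a cluster that held no sham cell, several IGF pathway transcripts fell, Igfbp4 among them, which had risen in endothelial-like cells. The difference between the classes was not tested. Against sham, 17.6% of 6715 genes passed, and of 14 pathway genes tested 1 rose and 3 fell, with a median log2 of -0.30 against 0.43 over all genes. Igfbp4 fell from 1819 ± 680 CPM (SD, n = 4) to 293 ± 63.0 CPM (n = 5), a log2 fold change of -2.24 ± 0.41 SE (edgeR adjusted p = 5.87e-04). Igfbp6, which binds IGF2 in preference to IGF1, fell from 412 ± 207 to 42.7 ± 29.9 CPM (log2 -3.08 ± 0.63 SE, edgeR adjusted p = 0.00165), and both calls held under every alternative run. The loss of the single sham day 14 plate, weighted as much as all sham day 1 plates together, was not run. Igf1, the ligand related to IGF2, fell from 480 ± 267 to 126 ± 65.1 CPM (log2 -1.99 ± 0.62 SE, edgeR adjusted p = 0.0266), which was lost under 4 of 18 alternatives, among them without MI replicate 3 (-1.86), MI replicate 5 or sham day 1 replicate 3 (both -1.77). Pappa, pappalysin itself, was the 1 gene that rose. It had 33.8 to 52.8 CPM on the MI plates and 0 UMIs on the 4 sham plates (edgeR adjusted p = 0.0365), and this call was lost under 7 of 18 alternatives. With 0 UMIs in sham, it passed the filter on low counts only through plates of injured hearts, so the call adds little.

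Against IR day 3 on the same day, 10.5% of genes passed in fibroblast-like cells, and 2 pathway genes rose and 5 fell in MI of 14 tested (median log2 -0.73 against 0.04 over all genes). Here too the clusters differed, with 97.7% of MI cells in one and 82.2% of IR day 3 cells in the other. Igfbp4 (log2 -1.94 ± 0.39 SE, edgeR adjusted p = 0.00161) fell again, from 1191 ± 780 to 293 ± 63.0 CPM, and this held under every alternative run. Igfbp6 fell by 2.41 on the log2 scale (edgeR adjusted p = 0.00577), lost without IR day 3 replicate 4 (-2.25). Igfbp7 fell by 1.15 (edgeR adjusted p = 0.0133), lost under 3 of 20 alternatives, among them without IR day 3 replicate 3 (-0.93). Igfbp5 (-2.98) and the insulin receptor substrate Irs1 (-2.18) also fell, but without IR day 3 replicate 3 they were at -0.53 and -1.20, and both lost their calls under 7 and 10 of 20 alternatives. Irs2 (3.70) and Igfbp3 (3.09) rose, and lost their calls under 4 and 3 of 20 alternatives, both among them without IR day 3 replicate 4 (6.73 and 2.92) or 7 (3.34 and 2.67). In IR day 3 against sham, where edgeR called 1.47% of genes, 0 of the 35 genes tested from this and the following 3 lists passed, 8 had an unadjusted p under 0.05, and DESeq2 called 2, Dcn and Heyl.

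**Figure D4:**
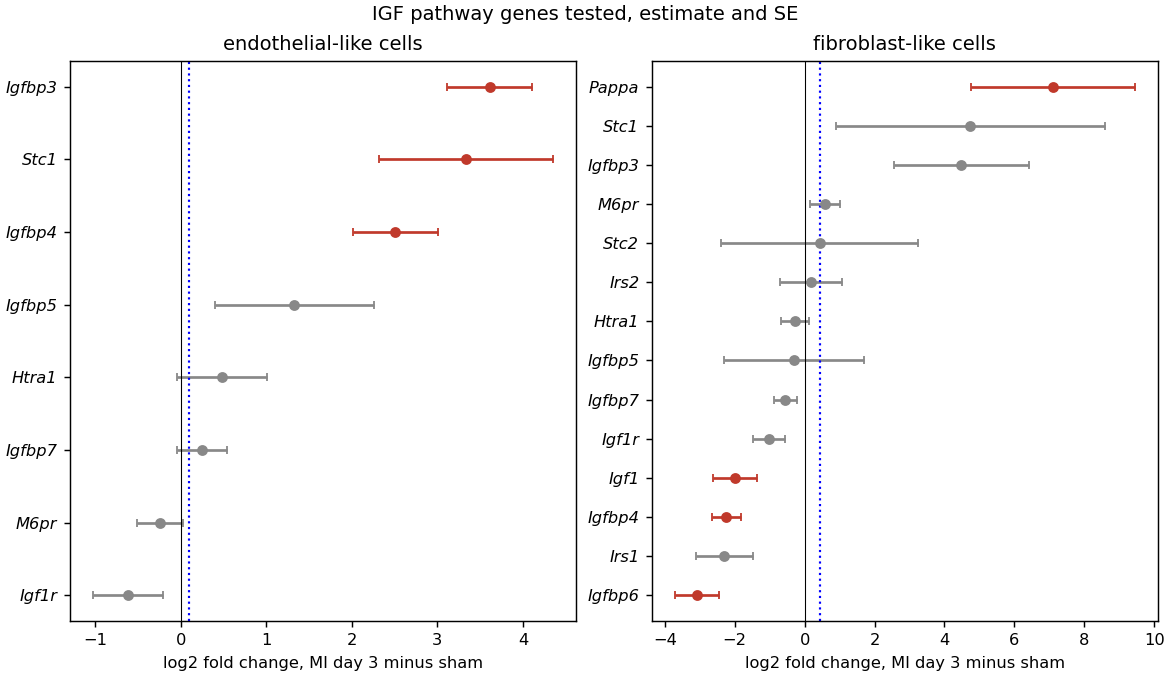
Points give the log2 fold change between MI day 3 and sham for each IGF pathway gene tested, with its standard error as a bar, in endothelial-like (left) and fibroblast-like cells (right); red points passed an adjusted p of 0.05 in edgeR and the dotted line is the median of all genes. Igfbp4 lies at 2.51 in endothelial-like and at -2.24 in fibroblast-like cells.

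Other imprinted genes did not move together. Of 41 listed, 8 were tested in endothelial-like cells, and in MI against sham 1 rose and 2 fell (median log2 -0.20), 3 of 8 where 36.1% of all genes passed. Grb10, an adaptor that restrains IGF1 and insulin receptor signalling, rose from 79.7 ± 39.0 to 206 ± 95.9 CPM (log2 1.17 ± 0.38 SE, edgeR adjusted p = 0.0145), and this held under every alternative run. Cd81, a tetraspanin, fell by 0.58 (edgeR adjusted p = 0.0426, lost under 8 of 23 alternatives), and Kcnq1ot1, the noncoding RNA that silences Cdkn1c on the paternal copy, fell by 1.32 (edgeR adjusted p = 0.0174, lost without MI replicate 1 at -1.07). In IR day 1 against sham day 1, where 17.7% of all genes passed, 0 rose and 2 fell, Gnas by 0.87 (edgeR adjusted p = 0.00713, lost under 3 of 23 alternatives) and Cd81 by 0.71 (adjusted p = 0.0311, lost under 9 of 23 alternatives). In fibroblast-like cells of MI against sham, where 17.6% of all genes passed, 1 rose and 1 fell of 14 tested. Dcn, the collagen-binding proteoglycan decorin and a fibroblast marker, fell from 18649 ± 808 to 2364 ± 494 CPM (log2 -2.78 ± 0.34 SE, edgeR adjusted p = 3.55e-06). H13 rose by 1.16 (edgeR adjusted p = 0.036), lost under 9 of 18 alternatives. Against IR day 3, where 10.5% passed, Dcn fell by 1.52 (edgeR adjusted p = 0.00252) and Sgce by 1.31 (adjusted p = 0.00358, lost under 1 of 20 alternatives).

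Among 6 further CDK inhibitors, which like Cdkn1c stop the cell cycle, Cdkn1a and Cdkn1b could be tested in endothelial-like cells. Cdkn1a, the p53 target p21, rose in IR day 1 from 145 ± 47.0 CPM (SD, n = 4) to 831 ± 365 CPM (n = 8), with every IR day 1 plate above every sham day 1 plate (log2 2.40 ± 0.49 SE, edgeR adjusted p = 6.95e-04), a call lost only when cells with markers of another class were left out (2.16). In MI against sham it stood at 0.91 ± 0.41 SE (edgeR adjusted p = 0.0775), and Cdkn1b at -0.17 ± 0.39 SE (adjusted p = 0.761). Of the 12 Notch pathway genes, listed because Dlk1 is a Notch-related ligand, 6 were tested in endothelial-like cells. In MI against sham 2 of the 6 passed, near the 36.1% of all genes. The ligand gene Dll4 rose (log2 1.01 ± 0.32 SE, edgeR adjusted p = 0.0133), lost under 2 of 23 alternatives, among them without MI replicate 3 (0.78), and the target gene Hey1 fell from 144 ± 112 to 21.4 ± 15.1 CPM (log2 -2.36 ± 0.56 SE, edgeR adjusted p = 0.00125). Dll4 also rose in IR day 1 (log2 1.07, edgeR adjusted p = 0.0442), lost under 17 of 23 alternatives, where 17.7% of all genes passed. In fibroblast-like cells of MI, Heyl fell against sham (log2 -1.71 ± 0.47 SE, edgeR adjusted p = 0.0135), lost under 2 of 18 alternatives, among them without sham day 1 replicate 4 (-1.52), where 17.6% of all genes passed.

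In cardiomyocyte-like cells of IR day 3 against sham, where 6.44% of 4118 genes passed, Igfbp7 rose (log2 1.14 ± 0.34 SE, edgeR adjusted p = 0.0239) and Kcnq1ot1 fell (log2 -1.31 ± 0.40 SE, adjusted p = 0.0267), of 20 list genes tested. Both calls were lost under 9 of 25 alternatives. In IR day 14 against sham day 14, where edgeR called 0.219% of genes, 0 of the same 20 passed, 6 had an unadjusted p under 0.05 and DESeq2 called 0. No comparison of MI cardiomyocyte-like cells was made, as 2 plates held at least 5 such cells.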

How the data were processed

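SORT-seq libraries of 36 plates were analysed. The authors mapped paired-end reads with BWA-ALN to GRCm38/mm10 and deposited UMI counts per gene and well. The BWA version, the annotation and whether counting used strand are not given in the sources used here. Igf2r and Airn overlap on opposite strands. All 174110208 deposited values were whole counts. Mitochondrial and spike-in counts were left out.

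Wells of at least 1000 UMIs were kept, scaled to 10000 and clustered with scanpy 1.11.5 and leidenalg 0.10.2 (2000 variable genes without the 7 genes described, 30 components, 15 neighbours, resolution 1). A cluster was named from at least 3 markers of a class raised at least 2 times, and these had to be 2 times those of any other class or more. Clusters of low depth for their plates with none of these among their leading genes stayed unnamed. No doublet caller was run, and the labels do not give one. CPM is UMIs of a gene per 1e+06 UMIs of the cells summed. Shares at 1000 UMIs per cell were computed exactly, as the mean over draws without replacement. A transcript gives 1 UMI whatever its length, and intervals and limits cover counting error only.

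Gene lists were tested on counts summed per plate and class (at least 5 cells) with edgeR 4.0.16 (R 4.3.3; filterByExpr, TMM, quasi-likelihood F test, Benjamini-Hochberg over all genes tested), with all groups in 1 fit and both sham groups weighted equally for day 3. DESeq2 1.42.0 was an alternative. The fit was checked on simulated counts. Igf2, H19, Mest, Cdkn1c, Igf2r, Dlk1 and Peg3 and all lists were chosen with earlier results of these data known. In each list every gene past the threshold was named, 10 or fewer in each comparison, and for each of the 7 genes the 3 most similar among genes of at least 200 UMIs. Groups come from the sample labels and a plate is 1 replicate. No pairing of plates by replicate number was seen between groups. None of 36 same-numbered pairs of endothelial-like sums and none of 20 of fibroblast-like sums had correlated deviations over 0.1, and the highest was 0.0999. Some sums held only 5 cells, so noise could hide a pairing, and cardiomyocyte-like sums were not examined.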

Additional observations from a re-analysis of the deposited data

Results flagged for a closer look

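Of 35 sets of 4 to 10 plates examined for a single plate far from the rest, 10 held such a plate, where chance gives about 1 in 20 among values with no ties. That rate does not apply to sets mostly at 0, where the plates at 11.1 and 25.0 CPM below held 1 or 2 UMIs. In endothelial-like cells these were Igf2 on sham day 1 replicate 4 (176 CPM), H19 on sham day 14 replicate 1 (800.3 CPM) and on IR day 1 replicate 8 (725 CPM), Mest on sham day 14 replicate 7 (230 CPM, the plate deposited 2 times) and Igf2r on MI day 3 replicate 5 (824 CPM). In fibroblast-like cells they were Igf2 on IR day 1 replicate 9 (25.0 CPM) and IR day 3 replicate 3 (40.7 CPM), H19 on IR day 1 replicate 5 (11.1 CPM) and IR day 3 replicate 3 (651 CPM), and Mest on IR day 1 replicate 9 (25.0 CPM).

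Igfbp4 rose in endothelial-like and fell in fibroblast-like cells of MI against sham, with log2 fold changes 4.75 apart. The difference between the classes was not tested.

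Wells below the limit for cells, with over 100 and under 1000 UMIs, held Igf2 at 115 CPM and H19 at 707 CPM in MI, above the 12.0 to 12.3 CPM of Igf2 and 6.16 to 15.1 CPM of H19 in sham wells of that depth.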

How the results depend on the processing

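The 7 mean levels recomputed (in endothelial-like cells Igf2, H19, Mest and Cdkn1c of MI, Mest of IR day 1 and Cdkn1c of sham day 1, and H19 in fibroblast-like cells of MI) stayed within 1 SD under all alternatives run, which says little for Igf2, H19 and Cdkn1c in endothelial-like cells of MI, whose SD was close to or above the mean. Leaving out single MI plates gave 871 to 2020 CPM for Igf2, 1299 to 3135 CPM for H19, 617 to 810 CPM for Mest and 38.5 to 69.8 CPM for Cdkn1c in endothelial-like cells. Of 32 named calls of list genes, 9 held under every alternative run and 23 were lost under at least 1, and none turned direction.

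Counts of called genes depended on the setting as follows. With DESeq2, fibroblast-like cells gave 201 (IR day 3 against sham, 99 in edgeR) and 1224 (MI against IR day 3, 703 in edgeR), and cardiomyocyte-like cells 1 (IR day 14, 9 in edgeR). Without the filter on low counts these 3 comparisons gave 265, 1217 and 20, and endothelial-like cells gave 142 (IR day 3, 60 in edgeR with the filter) and 2076 (MI against sham, 1315 with it). Leaving out cells with markers of another class, which can also bring a plate under 5 cells, gave 10, 321 and 746 in fibroblast-like cells (IR day 3 against sham, MI against IR day 3, MI against sham with 1184) and 1 in endothelial-like cells of IR day 1 (646). With at least 10 cells per plate, MI against IR day 3 gave 1396 in fibroblast-like cells and IR day 3 gave 431 in cardiomyocyte-like cells (265). Wells of at least 2000 UMIs gave 2 for cardiomyocyte-like cells of IR day 14. With the replicate number as a block the counts were 16, 196 and 648 in fibroblast-like cells (same order), 262 in endothelial-like cells of IR day 1 and 54 in cardiomyocyte-like cells of IR day 3. Whether the numbers pair the plates is not known. Leaving out single plates gave 4 to 11 (cardiomyocyte-like, IR day 14), 160 to 282 (cardiomyocyte-like, IR day 3), 14 to 82 (endothelial-like, IR day 3), 41 to 147 (fibroblast-like, IR day 3 against sham) and 347 to 907 (fibroblast-like, MI against IR day 3). The causes of these differences were not tested. Under RLE scaling, higher genes made up 45.9% of calls in place of 66.2% (fibroblast-like, MI against sham, median log2 of all genes from 0.43 to 0.12), 27.3% in place of 39.8% (MI against IR day 3) and 55.4% in place of 68.7% (IR day 3 against sham). Endothelial-like comparisons of day 3 without cells of mixed markers, fibroblast-like sham comparisons with at least 10 cells and the loss of the single sham day 14 fibroblast-like plate were not run, as too few plates remained.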
